A study of Mus musculus with 6 samples.

Results

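Transcripts of the 10 genes that encode the subunits found specifically in the NuRD complex were examined in embryonic mouse kidney. They are Chd3, Chd4, Mta1, Mta2, Mta3, Mbd2, Mbd3, Gatad2a, Gatad2b and Cdk2ap1. They were taken by name as the subunits of this complex, with earlier results of these data known, and all 10 were among the 11578 genes of the deposited table. NuRD joins a chromatin remodelling motor of the Chd family to histone deacetylases, and is recruited to DNA by repressors such as Sall1. Several of its positions can be filled by alternative paralogs: Chd3 or Chd4 as the motor, an Mta protein as the scaffold that holds the deacetylases, Mbd2 or Mbd3 as the methyl-CpG binding domain protein, and Gatad2a or Gatad2b as the bridge to the motor. In kidney development Sall1 is required for outgrowth of the ureteric bud and for the nephron progenitors.

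The study compared kidneys labelled as SRM deletion mutants (3 libraries, numbered 328, 336 and 342) with kidneys labelled Sall1 wild type (3 libraries, numbered 330, 331 and 337). The SRM is the short N-terminal motif through which Sall1 binds NuRD. All 6 came from whole embryonic kidney, with the stage labelled as embryonic day 17, though the extraction protocol gives a slightly later one. The labels do not say whether the mutants were homozygous, and strain or litter is not given in the sources used here. The p-values set a group difference against the spread between these libraries. They take the libraries as independent, which cannot be checked without the litters. Each value is a signal that the authors had scaled to nearly the same total in every library. In bulk tissue, fewer cells of a type and less RNA per cell cannot be told apart.

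The spacing of the values divided the libraries by depth into a lower class (mutant 336, wild types 331 and 337) and a higher class (mutants 328 and 342, wild type 330). The shallowest library, wild type 337, had an estimated 0.230 times the depth of the deepest, mutant 342. The regular spacing was weak in the higher class, so this value and the choice of the deepest library are uncertain. By these classes wild type 330 was the only wild type of higher depth and mutant 336 the only mutant of lower depth. On many members wild type 330 lay with the mutants. Markers of kidney compartments were all present (8 of 8), none of 6 adrenal markers was in the table, and of 7 muscle markers there was 1, Actn3. Sall1 itself did not differ past the threshold (log2 difference -0.19, SE 0.16, limma adjusted p = 0.481), and its gene-level signal does not test whether the SRM was deleted. Over all genes, 33 (0.285%) passed a Benjamini-Hochberg adjusted p of 0.05 in limma.

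None of the 10 subunit genes was among those that passed, and their adjusted p in limma ran from 0.231 for Chd3 to 0.567 for Mta3. The clearest pattern lay in the pair of motor genes: Chd3 was higher and Chd4 lower in every mutant library than in every wild type library, so that the 2 signals were nearly equal in mutants while Chd4 predominated in wild types. An unadjusted limma p under 0.05 was found for 2 of 10 members (20%, against 19.0% of all genes), Chd3 on the higher side (10.5% of all genes) and Chd4 on the lower (8.51% of all genes). Groups did not overlap for 3 of 10 members (30%, against 19.5% of all genes): Chd3 with all mutants above (11.1% of all genes), and Chd4 and Mbd2 with all mutants below (8.42% of all genes). The first of these shares is that of the whole table, and the second rests on 3 genes. The median log2 difference of the members was 0.21, with 6 positive and 4 negative, against 0.02 over all genes, and the median size regardless of sign was 0.32 against 0.28.

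**Figure D1:**
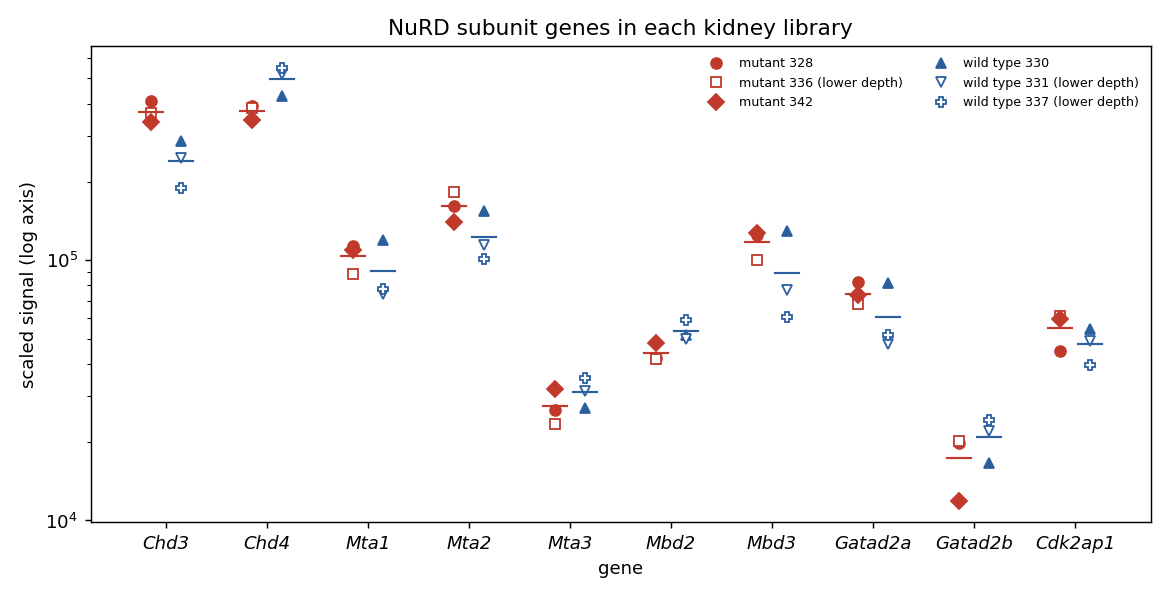
Scaled signal (log axis) of the 10 NuRD subunit genes in each library, mutants in red and wild types in blue, with short lines at the group means and open symbols for the lower-depth libraries. The mutants lie apart from the wild types for Chd3, Chd4 and Mbd2, and the groups overlap for the other 7 genes.

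Chd3 (chromosome 11, 69343273 to 69369406, minus strand, mm10) encodes one of the ATPases that slide nucleosomes for NuRD. Its signal was 407963, 368911 and 339033 in mutants 328, 336 and 342, against 287008, 246747 and 188804 in wild types 330, 331 and 337. The lowest mutant was above the highest wild type, which was the deep library 330. The group means were 371969 ± 34567 (SD, n = 3) for mutants, against 240853 ± 49367 (SD, n = 3) for wild types, a ratio of 1.54 and a log2 difference of 0.64 (SE 0.18), with a limma adjusted p of 0.231. Within the higher depth class, where wild type 330 stood alone, Chd3 was higher in mutants by 0.37 on the log2 scale. In the lower class, where mutant 336 stood alone, it was higher by 0.77. Because the groups did not overlap, the sign within a class was fixed and is no check on depth. After the dependence of each library on transcript length and GC content was removed, the difference was 0.35 (SE 0.13), with a limma adjusted p of 0.337.

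Chd4 (chromosome 6, 125095981 to 125130591, plus strand, mm10) encodes the alternative ATPase, the one best known from studies of NuRD in embryonic cells. Its signal was 392204, 385362 and 345611 in mutants 328, 336 and 342, against 428552, 518742 and 549655 in wild types 330, 331 and 337. Every mutant was below every wild type, and wild type 330 was again the wild type nearest to the mutants. Means were 374392 ± 25159 (SD, n = 3) and 498983 ± 62923 (SD, n = 3), a ratio of 0.750 and a log2 difference of -0.41 (SE 0.16), with a limma adjusted p of 0.246. The difference was -0.22 within the higher and -0.47 within the lower depth class, and -0.56 (SE 0.15, limma adjusted p = 0.235) with length and GC content removed.

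Because the 2 motor genes lay in opposite directions, their ratio within a library separated the groups further than either gene did. Such a ratio does not depend on how a library was scaled. The signal of Chd4 was 0.961, 1.04 and 1.02 times that of Chd3 in mutants 328, 336 and 342, and 1.49, 2.10 and 2.91 times in wild types 330, 331 and 337. The mutants were within a narrow band around equality, and the wild types were all higher and spread more widely. On the log2 scale the ratio was 0.01 ± 0.06 (SD, n = 3) for mutants, against 1.06 ± 0.48 (SD, n = 3) for wild types, a difference of -1.05, so the ratio was 2.07 times as large in wild types. A two-sided exact permutation test gave p = 0.1, the smallest that 3 against 3 libraries allow, and 0.40 after Benjamini-Hochberg adjustment over 6 paralog ratios. The difference therefore cannot pass the threshold in this design. Because neither gene overlapped between the groups, this p and the sign in any split of the libraries were fixed in advance. They add no support to the single-gene values. The difference in log2 ratio was -0.59 within the higher and -1.24 within the lower depth class. It ran from -1.30 to -0.81 when 1 library was left out, and was -0.91 with length and GC content removed, where the groups again did not overlap.

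The sequences show how far reads of these 2 paralogs can be told apart. Of 7232 stretches of 30 bases in the longest Chd3 transcript, 10 (0.138%) also occurred in the longest Chd4 transcript, and the longest identical run was 35 bases. To show that run in its surroundings, 60 bases of each transcript are given in 5′ to 3′ direction from GENCODE release M21, with capitals at the 7 positions that differ between the genes. The Chd3 bases lie within chr11:69353878-69354103 (minus strand) and those of Chd4 within chr6:125113548-125113917 (plus strand) on mm10, in both genes across a splice junction.
Chd3: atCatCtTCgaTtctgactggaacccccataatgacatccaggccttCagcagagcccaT
Chd4: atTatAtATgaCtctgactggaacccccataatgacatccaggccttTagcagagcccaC
Of the 60 positions 53 are the same in both genes, 35 of them in the shared run. How the aligner treated reads with several matches is not given in the sources used here.

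**Figure D2:**
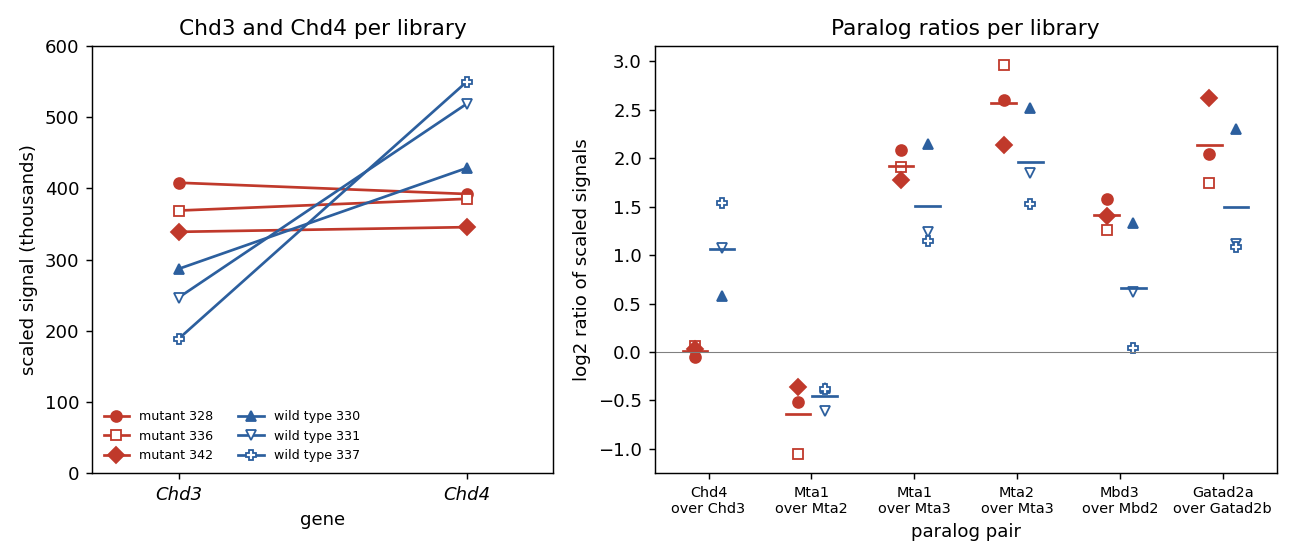
Left, scaled signal of Chd3 and Chd4 joined by a line for each library, and right, log2 ratio of each paralog pair per library with lines at the group means (mutants red, wild types blue, lower depth open symbols). The lines are nearly flat in the 3 mutants and rise in the 3 wild types. Chd4 over Chd3 is the 1 of 6 pairs whose groups do not overlap, as is the case for each of its genes alone. Groups do not overlap for 19.5% of all single genes.

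Levels of different genes were compared per kb of the longest annotated transcript. Over all 6 libraries Chd4 had 65206 signal units per kb, at the 96.1 percentile of 11518 genes, and Chd3 had 42200, at the 93.1 percentile. Chd4 made up 52.2% ± 1.1 (SD, n = 3) of the summed Chd3 and Chd4 signal per kb for mutants, against 69.1% ± 7.1 (SD, n = 3) for wild types. By library its share was 51.0%, 53.1% and 52.5% in mutants 328, 336 and 342, against 61.8%, 69.5% and 75.9% in wild types 330, 331 and 337. The sum of the pair was 107133 ± 8292 (SD, n = 3) signal units per kb for mutants, against 107679 ± 3976 (SD, n = 3) for wild types, so the log2 difference was -0.01. The sums overlapped between the groups. The shares within the pair did not, which was fixed in advance because neither gene overlapped, and adds nothing to the single-gene values.

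The Mta proteins are the scaffolds that hold the deacetylases, and no Mta gene separated the groups. Mta2 (chromosome 19, 8941875 to 8952303, plus strand, mm10) came closest, at 162051, 182880 and 140819 in mutants 328, 336 and 342, against 154331, 113938 and 101185 in wild types 330, 331 and 337. Wild type 330 fell inside the mutant range and the other wild types below it. The log2 difference was 0.41 (SE 0.19), with a limma adjusted p of 0.266. It rested on the lower depth class, where it was 0.77, against -0.03 in the higher class.

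Mta1 (chromosome 12, 113098278 to 113137206, plus strand, mm10), a paralog first described in metastatic tumour cells, had signals of 113145, 88160 and 109627 in mutants 328, 336 and 342, against 119315, 74458 and 77787 in wild types 330, 331 and 337. Its highest value of all was in a wild type. Its log2 difference of 0.22 (SE 0.21, limma adjusted p = 0.535) turned to -0.16 with length and GC content removed. Mta3 (chromosome 17, 83706163 to 83821516, plus strand, mm10) had signals of 26622, 23522 and 32108 in mutants, against 27017, 31561 and 35209 in wild types, in the same order of libraries, and the groups overlapped, and differed by -0.19 on the log2 scale (SE 0.20, limma adjusted p = 0.567).

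Within the Mta family Mta2 and Mta1 held most of the signal per kb. Mta2 made up 53.4% ± 6.3 (SD, n = 3) for mutants, against 48.5% ± 2.4 (SD, n = 3) for wild types, Mta1 38.0% ± 5.0 and 39.3% ± 3.0, and Mta3 8.7% ± 1.6 and 12.2% ± 3.6. The share of Mta3 was 15.2% in wild type 337 and 13.3% in wild type 331, but 8.2% in wild type 330, which lay inside the mutant range of 7.4% to 10.4%. None of the 3 ratios within the family separated the groups. The log2 ratio differed by -0.19 for Mta1 over Mta2 (exact permutation p = 0.700), by 0.41 for Mta1 over Mta3 (exact permutation p = 0.400) and by 0.60 for Mta2 over Mta3 (exact permutation p = 0.200), each two-sided, with adjusted values of 0.700, 0.480 and 0.400 over the 6 ratios.

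Mbd2 and Mbd3 define alternative forms of NuRD that do not contain each other. Mbd2, which binds methylated CpG, lies on chromosome 18 (70568189 to 70626131, plus strand, mm10). It had signals of 42018, 41667 and 48186 in mutants 328, 336 and 342, against 51530, 49796 and 58874 in wild types 330, 331 and 337. All mutants were below all wild types, by a small margin between mutant 342 and wild type 331. The log2 difference was -0.28 (SE 0.17), with a limma adjusted p of 0.351. It was -0.20 in the higher and -0.38 in the lower depth class, where the lack of overlap fixed the sign. With length and GC content removed it was -0.58 (SE 0.16, limma adjusted p = 0.232).

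Mbd3, whose mammalian protein has little preference for methylated DNA, lies on chromosome 10 (80392539 to 80399550, minus strand, mm10). Its signal was 125160, 99875 and 127425 in mutants 328, 336 and 342, against 129944, 76558 and 60533 in wild types 330, 331 and 337. Wild type 330 had the highest value of all and the other wild types had the 2 lowest. The log2 difference was 0.47 (SE 0.25, limma adjusted p = 0.309), but it was -0.04 within the higher depth class and 0.55 within the lower, and -0.02 with length and GC content removed. The transcript of Mbd3 had the highest GC content of the members, at 62.9%.

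Mbd3 made up 75.7% ± 2.0 (SD, n = 3) of the Mbd2 and Mbd3 signal per kb for mutants, against 64.6% ± 10.03 (SD, n = 3) for wild types. The wild type share was 74.8%, 64.4% and 54.7% in libraries 330, 331 and 337, so wild type 330 was again within the mutant range of 73.8% to 77.8%. The log2 ratio of Mbd3 over Mbd2 differed by 0.75 between groups, with a two-sided exact permutation p of 0.200 and an adjusted value of 0.400.

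The Gatad2 proteins bridge the Mbd protein and the motor. Gatad2a (chromosome 8, 69907076 to 69996384, minus strand, mm10) had signals of 82227, 67688 and 73264 in mutants 328, 336 and 342, against 82040, 47573 and 51740 in wild types 330, 331 and 337. All mutants were above wild types 331 and 337, while mutant 328 was on a level with wild type 330 and mutants 336 and 342 were below it. The log2 difference was 0.34 (SE 0.22, limma adjusted p = 0.373), at -0.08 within the higher depth class and 0.45 within the lower.

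Gatad2b (chromosome 3, 90293178 to 90363407, plus strand, mm10) was the lowest member per kb, at 2578 signal units and the 13.5 percentile of genes. Its signals were 19904, 20215 and 11924 in mutants 328, 336 and 342, against 16654, 21998 and 24363 in wild types 330, 331 and 337, and the groups overlapped. Gatad2b differed by -0.30 on the log2 scale (SE 0.25, limma adjusted p = 0.493), or -0.05 without mutant 342. An antisense gene, 4930537H20Rik, shares 2.16% of its exonic bases, and strand use in the counting is not given in the sources used here. Gatad2a made up 86.5% ± 3.5 (SD, n = 3) of the family signal per kb for mutants, against 80.1% ± 6.9 (SD, n = 3) for wild types, and the log2 ratio of the 2 genes differed by 0.64 (two-sided exact permutation p = 0.3, adjusted 0.450).

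Cdk2ap1 (chromosome 5, 124345417 to 124363082, minus strand, mm10) encodes a small subunit named for its association with the kinase Cdk2. Its value is uncertain, because 93.5% of the 30-base stretches of its transcript also occur in another annotated gene, almost all of them in Gm12184, which was not in the table. The signal was 44779, 61191 and 59338 in mutants 328, 336 and 342, against 54488, 48754 and 39629 in wild types 330, 331 and 337, with overlapping groups. Cdk2ap1 differed by 0.21 on the log2 scale (SE 0.19, limma adjusted p = 0.532), or 0.08 without wild type 337. Of the other members, Gatad2b shared 3.31% of such stretches with other genes, and the rest shared at most 0.490%.

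**Figure D3:**
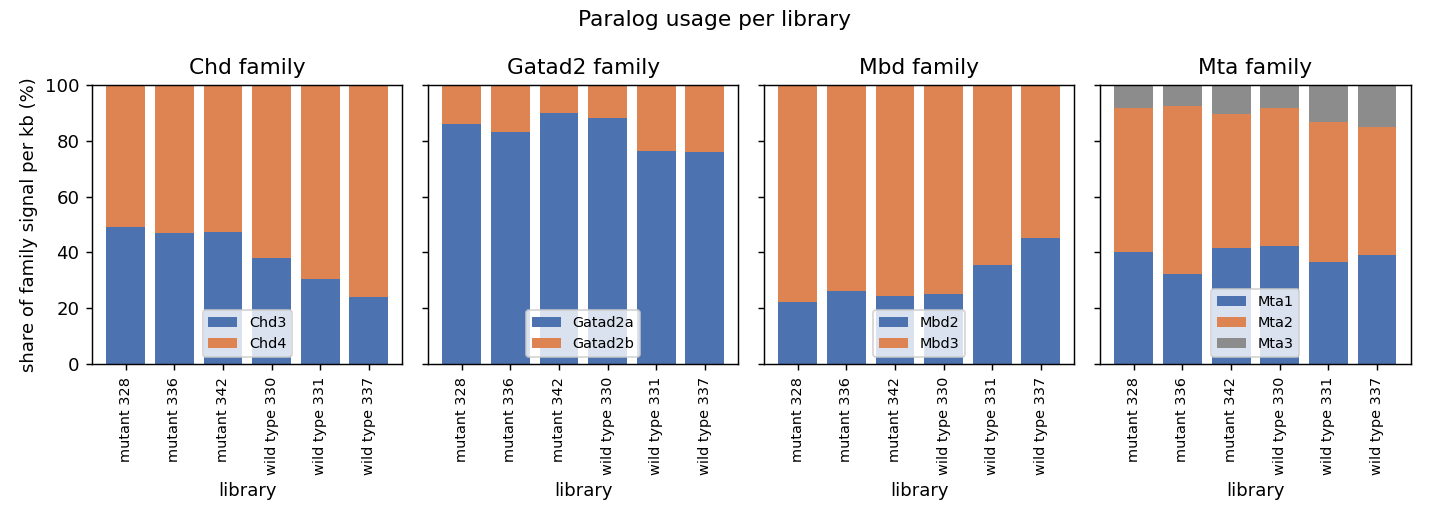
Share of each paralog in the summed signal per kb of its family (%), 1 bar per library. In the Chd family every wild type bar has a larger Chd4 share than every mutant bar, as the lack of overlap of both genes fixed. The Mbd3, Gatad2a and Mta3 shares of wild type 330 lie within the mutant range, and those of wild types 331 and 337 outside it.

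Ordered by mean signal per kb over the 6 libraries, the members ran from Chd4 through Mbd3 (62123), Mta2 (45465), Chd3, Cdk2ap1 (39059), Mta1 (34353), Mbd2 (24925), Gatad2a (13466) and Mta3 (8926) to Gatad2b, a span of 25.3 times. Most neighbours in this order were not separated by their spread over libraries. Ranges of neighbours were apart only between Mbd2 and Gatad2a and between Mta3 and Gatad2b, and Chd4 was above Mbd3 in 2 of 6 libraries. The order also depended on the division by length. Without it, Chd3 (306411) lay above Mta2 (142534) and Mbd3 (103249), and Gatad2a (67422) above Cdk2ap1 (51363). Gatad2b was then at the 36.1 percentile. In wild types Chd4 was at 74508 ± 9396 (SD, n = 3) signal units per kb and Chd3 at 33171 ± 6799 (SD, n = 3), and in mutants at 55904 ± 3757 (SD, n = 3) and 51228 ± 4761 (SD, n = 3).

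Wild type 330 decided how many members passed. Without it 5 of 10 passed in limma, Chd3, Mta2, Mbd3 and Gatad2a higher and Chd4 lower in mutants, but so did 26.7% of all genes. The wild types then left, 331 and 337, were both of lower depth, and of the mutants only 336 was. Genotype was thus largely confounded with depth class in that fit. Without wild type 330 the log2 difference was 0.78 (adjusted p = 0.00900) for Chd3, -0.51 (adjusted p = 0.0307) for Chd4, 0.58 (adjusted p = 0.0236) for Mta2, 0.78 (adjusted p = 0.0100) for Mbd3 and 0.58 (adjusted p = 0.0225) for Gatad2a, each in limma. Leaving out any of the other 5 libraries left 0 of 10 past the threshold. It also brought several differences nearer to 0, to 0.10 for Mta1 and 0.19 for Gatad2a without wild type 331. Mbd3 was at 0.23 without wild type 337 and Mta3 at -0.09 without mutant 336. Other differences moved away from 0, to 0.71 for Chd3 and 0.51 for Mta2 without mutant 342. Mbd3 was at 0.58 without mutant 336 and Cdk2ap1 at 0.35 without mutant 328. For Mta1, Mta2, Mbd3, Gatad2a and Cdk2ap1 the difference was between -0.10 and -0.03 within the higher depth class and between 0.21 and 0.77 within the lower. Chd3, Chd4, Mbd2 and Gatad2b had the same sign in both classes. For Chd3, Chd4 and Mbd2 that sign was fixed, because their groups did not overlap. Mta3 was at 0.11 in the higher class and -0.50 in the lower.

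Values of several members also moved with the removal of transcript length and GC content. The differences of Mta1, Mbd3 and Cdk2ap1 turned from 0.22, 0.47 and 0.21 to -0.16, -0.02 and -0.05, those of Mta2, Gatad2a and Mta3 went from 0.41, 0.34 and -0.19 to 0.21, 0.12 and -0.40, and that of Gatad2b from -0.30 to -0.13. Chd3, Chd4 and Mbd2 also kept their sign, at 0.35, -0.56 and -0.58. With depth class added as a covariate to that removal they were at 0.30, -0.49 and -0.50 while Gatad2a was at -0.0013, and 0 of 10 members passed in either fit.

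**Figure D4:**
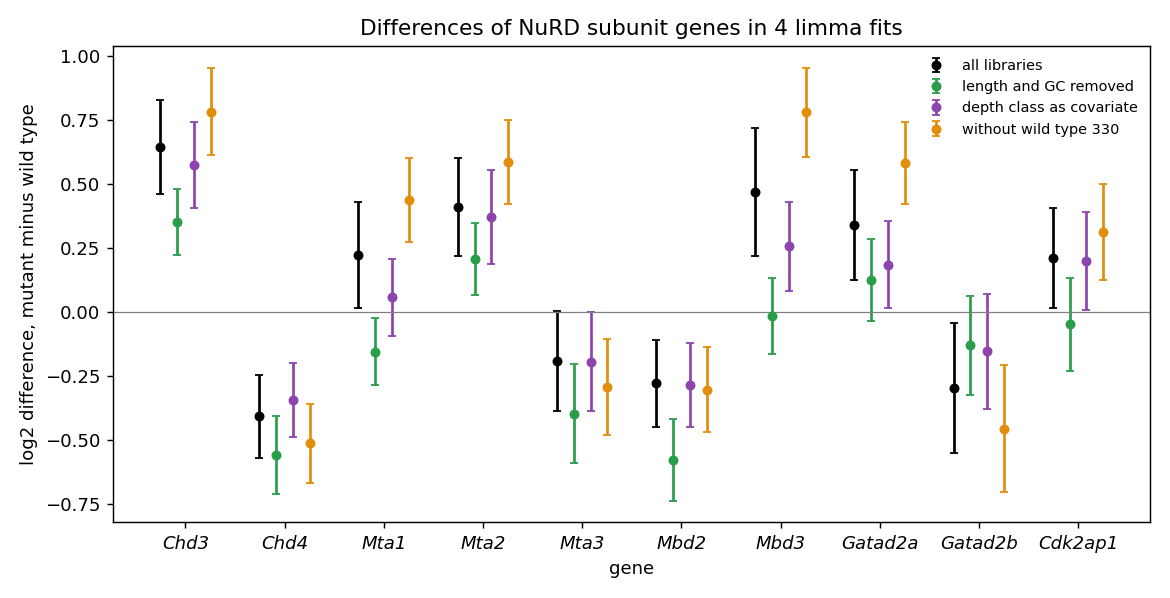
Log2 difference (mutant minus wild type) of each NuRD subunit gene with its SE as bars, in 4 limma fits shown by colour: all libraries, length and GC content removed, depth class as a covariate, and without wild type 330. Chd3, Mta2 and Gatad2a stay above 0 and Chd4, Mta3, Mbd2 and Gatad2b below 0 in all 4, while Mta1, Mbd3 and Cdk2ap1 cross 0 once length and GC content are removed.

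None of the subunits that NuRD shares with other complexes passed the test. Of the deacetylases Hdac1 and Hdac2 and the histone binding proteins Rbbp4 and Rbbp7, 0 of 4 passed in limma and 0 had an unadjusted p under 0.05, with a median log2 difference of -0.04. Hdac2 had the lowest p of these, at -0.28 (SE 0.17, limma adjusted p = 0.365), and turned to 0.05 with length and GC content removed. Rbbp7 followed at -0.08 (SE 0.18, limma adjusted p = 0.807). The signal of Rbbp4 averaged 181730 ± 14947 (SD, n = 3) for mutants, against 181627 ± 15346 (SD, n = 3) for wild types.

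Of 7 other Chd remodellers 0 passed and 1 had an unadjusted limma p under 0.05 (19.0% of all genes). This was Chd1, which binds the trimethylated histone mark of active promoters, at -0.44 (SE 0.19, limma adjusted p = 0.258). Chd8, a remodeller linked to Wnt signalling, was at -0.26 (SE 0.17, limma adjusted p = 0.377). It was the 1 of the 7 with all mutants below all wild types (8.42% of all genes). Of 5 other proteins of the methyl-CpG binding domain family 0 passed and 1 had such a p (19.0% of all genes). That was Mbd6, at 60720, 50416 and 41448 in mutants 328, 336 and 342, against 41663, 15878 and 22057 in wild types 330, 331 and 337. Mutant 342 and wild type 330 overlapped, and the log2 difference was 1.04 (SE 0.30, limma adjusted p = 0.231). Mbd4, a DNA glycosylase, was at -0.31 (SE 0.34, limma adjusted p = 0.599).

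Of 8 repressors that bind NuRD, Sall1, Sall2, Sall3, Zfpm1, Zfpm2, Bcl11b, Zfp827 and Ikzf2, 0 passed and 0 had an unadjusted p under 0.05, with a median log2 difference of -0.06. The lowest p were those of Ikzf2, a zinc finger factor of lymphocytes (-0.58, SE 0.38, limma adjusted p = 0.385), and Zfp827 (-0.25, SE 0.18, limma adjusted p = 0.438). Of 6 factors associated with NuRD 0 passed and 2 had an unadjusted limma p under 0.05 (19.0% of all genes). Cdk2ap2, the paralog of Cdk2ap1, was at 0.64 (SE 0.25, limma adjusted p = 0.247) and Znf512b, a zinc finger protein, at 0.59 (SE 0.24, limma adjusted p = 0.248), with a median of 0.15 for the list. Among 13 genes of other complexes built on the same deacetylases 0 passed and 1 had an unadjusted limma p under 0.05 (19.0% of all genes). It was Mier2, at 0.88 (SE 0.24, limma adjusted p = 0.231), with all mutants above all wild types (11.1% of all genes). Mier1 followed at -0.47 (SE 0.25, limma adjusted p = 0.307). The median of that list was 0.03. The Mier proteins recruit Hdac1 and Hdac2 to their own complexes.

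The summed signals of macrophage markers and of proliferation genes did not overlap between the groups, though 0 genes of either list passed the threshold. All 5 macrophage markers in the table were higher in every mutant than in every wild type (11.1% of all genes), with a summed signal per kb of 40467 to 43338 in mutants and 20985 to 26670 in wild types, and Cd68 and Adgre1 had no value here. C1qc, a complement subunit, was at 1.64 (SE 0.34, limma adjusted p = 0.108) and Csf1r, the receptor of the macrophage growth factor, at 0.95 (SE 0.21, limma adjusted p = 0.130). The proliferation list had 0 of 10 past the threshold and 4 with an unadjusted p under 0.05, all lower in mutants (8.51% of all genes). All mutants were below all wild types for 3 of the 10 (8.42% of all genes), and the list had a summed signal per kb of 224203 to 269892 against 285003 to 310990. Top2a, the topoisomerase of dividing cells, was at -0.63 (SE 0.17) and Mki67 at -0.69 (SE 0.20), with a limma adjusted p of 0.231 for both. The part of these cells, and of cell division, in the Chd3 and Chd4 values was not tested.

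The summed signals of erythroid and kidney compartment markers overlapped between groups. The 4 erythroid markers in the table summed to 2153030 to 4577830 signal units per kb in mutants and 2638760 to 4051570 in wild types, with Alas2, the first enzyme of heme synthesis in red cells, at 0.46 (SE 0.24, limma adjusted p = 0.302) and Hba-a2 at -0.39 (SE 0.23, limma adjusted p = 0.345). The 8 kidney compartment genes summed to 169615 to 217026 signal units per kb in mutants and 193259 to 248796 in wild types. Of these 0 passed and 3 had an unadjusted limma p under 0.05 (19.0% of all genes), 1 higher and 2 lower in mutants. The lowest p was that of Slc12a1, the cotransporter of the thick ascending limb, with all mutants below all wild types (-0.86, SE 0.18, limma adjusted p = 0.0955). It was followed by Pax2, a transcription factor of the nephric lineage, with all mutants above (0.44, SE 0.16, limma adjusted p = 0.241, or -0.09 with length and GC content removed). The muscle marker Actn3 was at -0.49 (SE 0.34, limma adjusted p = 0.415).

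The genes whose signal over the 6 libraries was most like that of Chd4 were Fastkd5, Hspa13 and Gm14434, with Pearson correlations of the log2 signal of 0.996, 0.994 and 0.993 over 6 libraries. Fastkd5 was at 10878, 11036 and 9921 in mutants 328, 336 and 342, against 12394, 15030 and 15605 in wild types 330, 331 and 337, the same order of wild types as for Chd4. Among the members, Gatad2b (0.783), Mbd2 (0.707) and Mta3 (0.536) varied in the same direction as Chd4 over the libraries. Chd3 was the member most opposed to it, at -0.883, with Mbd3 at -0.865. These 6 points share the split by depth class as well as the genotypes, so the values are a description.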

How the data were processed

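Polyadenylated RNA of 3 mutant and 3 wild type kidneys was made into Ion Torrent libraries, per the labels' protocols. The deposited table holds 1 whole-number signal per gene and library, scaled by the authors to totals of 555147910 to 559251769. The authors also deposited group means, a ratio and log2 ratio of means and an unadjusted p-value per gene. The build was mm10 and bedtools was used, per the submitters' processing notes. Aligner, annotation, scaling method or filter is not given in the sources used here, nor whether reads or covered bases were counted, so true depth is unknown and intervals for counting error are not given.

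The comparison used limma 3.58.1 under R 4.3.3 (variance trend on mean level) on log2(signal + 1) over all 11578 genes. There was no further filter, and Benjamini-Hochberg adjustment and a threshold of 0.05 were used. Log2 differences are on that log scale, while ratios of group means are of the unlogged signal. The design had allowed for counts, and the form for scaled values was used. Paralog ratios were tested with scipy 1.17.1 by exact permutation. Length, GC content and coordinates came from GENCODE release M21 (GRCm38, the mm10 assembly) for 11518 genes. Levels per kb assume that signal grows with transcript length; across genes Spearman's rho between them was 0.146. Depth classes are steps between values below and above 1, found from the periodicity of values under 60000. The 3 steps below 1 rest on a weak periodicity of 0.100 to 0.139, where 0.131 to 0.184 was expected for such steps.

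Named were all members, for each other list those past the threshold or else the 2 lowest p, and the 3 genes most correlated with Chd4. The members, lists and tests were chosen with earlier results of these data known. Alternatives were leaving out each library, quantile normalization, a pseudocount of 1000, a minimum mean of 10000, no trend, depth class as a covariate, removal of length and GC content by splines, and the authors' p-values.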

Additional observations from a re-analysis of the deposited data

How the results depend on the processing

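None of the members passed in any of the 14 alternatives except without wild type 330, and leaving out 1 library moved the number past the threshold between 0 and 5 for members, 0 and 19 for genes of the other lists, and 2 and 3095 for all genes. The extremes over all genes were without mutant 328 and without wild type 330. The authors' p-values after Benjamini-Hochberg adjustment gave 0 genes (1009 at an unadjusted p under 0.05). Chd3, Chd4, Mta2, Mta3, Mbd2 and Gatad2b kept their direction in all 14, but some of the 14 could not turn a sign. A minimum mean and no trend left the log2 differences themselves unchanged. For Chd3, Chd4 and Mbd2 the lack of overlap also fixed the sign with 1 library left out or depth class as a covariate. With length and GC content removed, differences turned to -0.16 for Mta1, -0.017 for Mbd3, -0.050 for Cdk2ap1, 0.051 for Hdac2, -0.085 for Pax2 and 0.15 for Rbbp7. With depth class added, a fit chosen after the data were seen, they were -0.24 for Mta1, -0.090 for Mbd3, -0.0013 for Gatad2a, 0.040 for Hdac2, 0.11 for Mbd4, 0.075 for Mier1, -0.011 for Pax2 and 0.055 for Rbbp7. Leaving out 1 library gave -0.69 to 0.055 for Mbd4 (positive without wild type 337), and, both positive without mutant 336, -0.22 to 0.047 for Rbbp7 and -0.33 to 0.015 for the log2 ratio of Mta1 over Mta2. The cause of these turns was not tested. The other 5 paralog ratios kept their direction.

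Without division by length the mean share of Chd4 was 50.2% in mutants, that of Mbd3 72.7% in mutants, and that of Gatad2a 81.2% in mutants and 73.2% in wild types. With the length of all joined exons, the share of Mta1 was 44.4% in wild types, that of Mta3 6.6% in mutants and that of Mbd3 81.1% in mutants. No paired analysis was possible because litter, or any other pairing of mutants with wild types, is not given in the sources used here. A fit within 1 depth class would have a lone library on one side, so those values carry no test.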
